A study of Mus musculus with 6 samples.

Results

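Heme is built by a chain of enzymes that begins and ends in the mitochondrion, and 9 genes of that chain were followed here: Slc25a38, which carries glycine into the mitochondrion, and the enzymes Alas2, Alas1, Alad, Uros, Urod, Cpox, Ppox and Fech. They were taken by name from the symbols of the array's annotation, each through its brightest probe set assigned to that gene alone, and each had exactly 1 such probe set. All 9 were measured, out of 19937 genes on the array. The samples were whole livers of FVB/NJ mouse embryos at embryonic day 13.5, from matings of mice heterozygous for Klf1: 3 Klf1-/- livers, called knockout here, and 3 wildtype livers. Klf1 is an erythroid transcription factor. The labels do not say which part of the gene was altered, nor whether embryos were littermates. Unless given as without moderation, limma p-values, SEs and intervals join 2 spreads. These are the gene's own spread among 3 embryos per genotype and a spread estimated over all genes (moderation). For genes with tight replicates the SE can therefore exceed what their own spread gives. RNA was hybridised to 1 Affymetrix gene array per liver, and levels are the log2 of the authors' normalized intensities, so a difference of 1 is a 2-fold difference.

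Most red cells of the midgestation embryo form in the liver, and developing red cells make far more heme than any other cell because every globin chain holds one. Synthesis starts when 5-aminolevulinate synthase joins glycine to succinyl-CoA in the mitochondrion. That step has a general form, Alas1, present in all cells and held down by heme in hepatocytes, and a red cell form, Alas2, encoded on the X chromosome and restrained when iron is scarce. The middle steps run in the cytosol, and coproporphyrinogen oxidase, protoporphyrinogen oxidase and ferrochelatase return the pathway to the mitochondrion, where iron is inserted. In humans, inherited faults in SLC25A38 or ALAS2 cause sideroblastic anemia, and faults in the later enzymes cause porphyrias. The step between Alad and Uros was not analysed here.

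The pathway was lower in the knockout, but unevenly. Of the 9 genes 6 fell, namely Slc25a38, Alas2, Alad, Urod, Cpox and Ppox, 1 rose, namely Alas1, and 2, Uros and Fech, did not pass the test, where a call is a Benjamini-Hochberg adjusted p under 0.05 in limma over all 19937 genes. Over all genes 8.26% were called lower, 10.8% higher and 19.1% in either direction. The median change of the 9 genes was -0.51, against -0.02 over all genes. In all 9 the knockout and wildtype arrays did not overlap, which held for 37.5% of all genes. The knockout livers held 48.1% of the wildtype level of Slc25a38, 51.1% of that of Alas2 and 53.8% of that of Alad, the lowest shares of the 9 genes, while Cpox stood at 83.4% and Fech at 94.8%. The genes and the lists below were chosen with earlier results of these data known.

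Because several of these genes moved together, the 250 bases before their annotated starts were read from RefSeq's promoter windows (GRCm38.p6), which hold 8 of the 9 genes in 11 windows. The windows were searched on both strands for CCNCNCCC, letters of the CACCC type that Klf1 is known to bind and that GC boxes also match, and for GATAA, the core of sites bound by Gata1. The first was found in 7 of the 11 windows, of 5 genes, and in 45.9% of all 32851 windows; the second in 3 windows, of 3 genes, and in 22.6% of all windows. No match of one motif overlapped a match of the other. Of the 5 sequences shown, 4 belong to genes that fell and 1, Alas1, to the gene that rose. Each reads 5′ to 3′ in the direction of the gene and ends at the base before the start, with matches to either motif in capitals. Where a gene has 2 windows, the upstream one is given.
Slc25a38 (chr9:120110132-120110381, + strand): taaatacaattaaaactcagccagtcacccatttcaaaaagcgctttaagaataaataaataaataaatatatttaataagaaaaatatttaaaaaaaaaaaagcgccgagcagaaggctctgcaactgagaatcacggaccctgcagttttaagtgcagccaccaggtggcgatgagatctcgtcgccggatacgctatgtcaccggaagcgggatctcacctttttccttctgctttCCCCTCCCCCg
Alas2 (chrX:150547167-150547416, + strand): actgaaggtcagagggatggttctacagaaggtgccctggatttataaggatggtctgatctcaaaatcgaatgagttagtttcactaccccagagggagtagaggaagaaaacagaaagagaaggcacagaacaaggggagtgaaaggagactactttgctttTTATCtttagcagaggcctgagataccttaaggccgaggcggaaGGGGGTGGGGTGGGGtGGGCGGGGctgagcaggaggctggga
Alas1 (chr9:106247955-106248204, - strand): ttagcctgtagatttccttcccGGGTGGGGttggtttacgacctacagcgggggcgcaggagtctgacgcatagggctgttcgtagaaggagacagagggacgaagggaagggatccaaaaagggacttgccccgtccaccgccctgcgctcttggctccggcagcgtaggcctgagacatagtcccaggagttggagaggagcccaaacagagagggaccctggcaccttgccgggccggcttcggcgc
Alad (chr4:62520064-62520313, - strand): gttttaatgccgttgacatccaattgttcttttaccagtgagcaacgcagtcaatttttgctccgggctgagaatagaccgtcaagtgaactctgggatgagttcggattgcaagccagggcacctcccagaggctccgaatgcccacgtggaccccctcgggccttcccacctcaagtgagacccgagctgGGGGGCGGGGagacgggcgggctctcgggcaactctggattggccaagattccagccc
Cpox (chr16:58669958-58670207, + strand): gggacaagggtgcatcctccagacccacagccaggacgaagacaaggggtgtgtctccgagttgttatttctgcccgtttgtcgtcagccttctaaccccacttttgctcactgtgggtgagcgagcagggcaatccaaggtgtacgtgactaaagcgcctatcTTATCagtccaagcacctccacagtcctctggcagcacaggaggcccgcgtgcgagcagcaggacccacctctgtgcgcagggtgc
Alas2 holds 4 CACCC-type matches, some overlapping each other, between 42 and 19 bases before its start, and a GATA match 86 to 82 bases before it. Cpox, with the smallest of the called falls, has a GATA match at the same 86 to 82 bases and no CACCC-type match. Alas1, which went the other way, also carries a CACCC-type match, 228 to 221 bases before its start. Its other window holds 2, at 206 to 199 and 47 to 40 bases before that start. The other window of Alad, which fell, overlaps the one shown and holds 4 matches. Those at 212 to 205 and 210 to 203 bases before its start are the same letters as the matches in the window shown. Uros, which was not called, holds a CACCC-type match 32 to 25 bases before 1 start. At its other start it holds a GATA match, 68 to 64 bases before. Urod and Ppox, which fell, hold neither motif in this window. These matches describe the letters of the windows and were not tested as sites.

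The livers carried the markers of their label. Albumin (Alb) and alpha-fetoprotein (Afp), made by hepatoblasts, read between 13.22 and 14.03 on every array, and the red cell anion exchanger Slc4a1 read 12.68 to 12.88 in knockout livers and 13.48 to 13.71 in wildtype livers. Klf1 itself read 9.05, 9.38 and 9.12 in the knockout and 10.59, 10.58 and 10.76 in the wildtype (change -1.46 ± 0.10, SE), although its probe set may lie outside the altered part. In both groups 1 liver had high Y-linked and low Xist signal, knockout 1 and wildtype 2, so the groups did not differ in that respect. The median intensity lay between 104.5 and 109.8 on all arrays, and the number of arrays limits the precision. In a whole liver, fewer red cell precursors and less RNA per precursor cannot be told apart: of 7 measured erythroid markers 6 fell and 0 rose, with a median change of -0.91 and a summed intensity of 22512 to 24737 in the knockout against 39648 to 45751 in the wildtype. Over all genes 8.26% were called lower and 10.8% higher. The part of the erythroid marker shift in the falls described here was not tested.

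Slc25a38 supplies the glycine that the first enzyme uses, and it had the largest fall of the 9 genes. It read 10.52, 10.43 and 10.42 in knockout livers 1, 2 and 3, against 11.46, 11.57 and 11.52 in wildtype livers 1, 2 and 3. The spread within either group was small beside the gap between them, with means of 10.46 ± 0.05 and 11.51 ± 0.06 (SD, n = 3 each). The change was -1.06 ± 0.08 (SE; limma adjusted p = 4.7e-06), the 188th largest fall among all genes.

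The 2 genes of the first step moved in opposite directions. Alas2, the red cell form, read 11.64, 11.80 and 11.76 in the knockout, against 12.61, 12.71 and 12.79 in the wildtype, a change of -0.97 ± 0.08 (SE; limma adjusted p = 1.7e-05). Every knockout array thus lay clearly below every wildtype array. Since Alas2 is X-linked, its change was also taken between arrays of like Xist signal: it was -0.92 between the 2 knockout and 2 wildtype livers with high Xist, and -1.07 between the single livers with low Xist.

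Alas1, the general form, read 8.51, 8.64 and 8.67 in knockout livers, against 8.31, 8.29 and 8.24 in wildtype livers. All knockout arrays were higher, by a small margin, and the change of 0.33 ± 0.08 (SE; limma adjusted p = 0.015) corresponds to 125% of the wildtype level, with a 95% interval of 111 to 141%. The call was lost without knockout 2 (adjusted p = 0.062) or without knockout 3 (adjusted p = 0.077), and with any of the alternatives the change stayed between 0.27 and 0.38. Markers of megakaryocytes and granulocytes were also higher, with 6 of 6 and 3 of 7 called and median changes of 0.66 and 0.43. The summed intensity of the megakaryocyte markers was 18689 to 24373 in the knockout and 14575 to 15330 in the wildtype; that of the granulocyte markers was 5917 to 7349 in the knockout and 4631 to 5031 in the wildtype. Of 10 hepatoblast markers 1 fell and 0 rose, with a median of -0.05 and sums of 57317 to 62214 in the knockout and 59091 to 70056 in the wildtype. Of 6 stem and progenitor markers 3 rose, of 5 endothelial markers 1 rose, of 9 macrophage markers 5 fell, and of 17 housekeeping genes 0 were called. Over all genes 8.26% were called lower and 10.8% higher. With so few genes, the counts of 1 hepatoblast marker lower and 1 endothelial marker higher lie near those shares. The part of other cells in the rise of Alas1 was not tested.

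Set against each other on the same array, Alas2 minus Alas1 was 3.13, 3.17 and 3.09 in the knockout and 4.30, 4.42 and 4.54 in the wildtype. The balance of the red cell form over the general form was therefore lower on every knockout array, a difference of -1.29 on the log2 scale, which is 0.408 times the wildtype ratio. An exact 2-sided permutation test over the 20 arrangements gave p = 0.10, the smallest that 3 against 3 arrays allow. These probe sets differ in affinity, so the size of the difference on an array is no ratio of transcripts, only its shift between groups is read.

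Alad, which joins aminolevulinate molecules into porphobilinogen in the cytosol, read 12.64, 12.86 and 12.89 in the knockout, against 13.73, 13.81 and 13.54 in the wildtype. The change was -0.89 ± 0.10 (SE; limma adjusted p = 0.00012), and the groups were well apart although wildtype 3 was the lowest of its group and knockout 1 the lowest of all. The highest signal on any array was between 14.35 and 14.73, so wildtype Alad lies in the upper range of the scale, where differences can be compressed.

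Uros closes the porphyrin ring in its working isomer, and in humans its loss causes congenital erythropoietic porphyria. Unlike its neighbours it was not lower: it read 11.13, 11.26 and 11.11 in knockout livers, against 10.97, 10.97 and 10.90 in wildtype livers. The arrays did not overlap, but the change of 0.22 ± 0.08 (SE) missed the threshold (limma adjusted p = 0.079). It passed after quantile normalization (adjusted p = 0.032), with a trended and robust variance (adjusted p = 0.034) and among the brighter 9969 genes (adjusted p = 0.037).

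Urod trims the side chains of the ring, the last purely cytosolic step. It read 12.18, 12.18 and 12.16 in the knockout, against 12.67, 12.67 and 12.70 in the wildtype. These were the tightest replicates of the pathway, with SDs of 0.01 and 0.02, and the change of -0.51 ± 0.07 (SE; limma adjusted p = 0.00061) put knockout Urod at 70.3% of wildtype, with a 95% interval of 63.0 to 78.5%.

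Cpox, which oxidises coproporphyrinogen in the space between the mitochondrial membranes, read 12.32, 12.31 and 12.25 in knockout livers, against 12.64, 12.52 and 12.51 in wildtype livers. The groups did not overlap, but the gap was narrow, a change of -0.26 ± 0.08 (SE; limma adjusted p = 0.039). This call was the least stable of the falls: it was lost after quantile normalization, after housekeeping centring, in the replicate block (adjusted p = 0.062) and when any 1 of 5 arrays was left out, all but wildtype 3, with changes of -0.22 to -0.28 and adjusted p from 0.064 to 0.14 in those 5.

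Ppox, the next oxidase, fell by more. It read 10.62, 10.63 and 10.74 in the knockout, against 11.21, 11.43 and 11.62 in the wildtype. Its wildtype arrays were the most scattered of the pathway (SD 0.21, against 0.07 in the knockout), yet no array crossed over, and the change was -0.76 ± 0.11 (SE; limma adjusted p = 0.00054), or 59.1% of wildtype with a 95% interval of 50.3 to 69.5%.

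Fech, ferrochelatase, completes heme by inserting iron. It read 12.17, 12.19 and 12.24 in the knockout, against 12.25, 12.27 and 12.30 in the wildtype. The arrays of the groups abutted without overlap, and the change of -0.08 ± 0.07 (SE) was not called (limma adjusted p = 0.50). Its 95% interval ran from 84.8 to 106% of the wildtype level, so a fall of the size seen in Alas2 lies outside it. That interval is from the moderated fit. Without moderation the SE of Fech was smaller, 0.03, and the change was again not called (limma without moderation, adjusted p = 0.17).

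**Figure D1:**
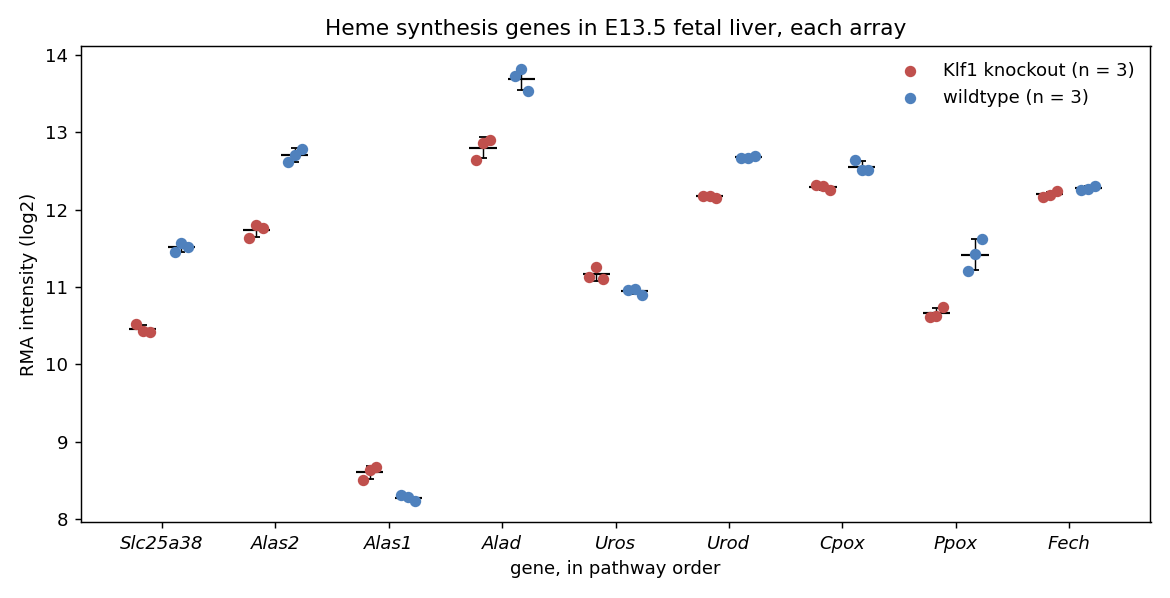
Log2 RMA intensity (y axis) of the 9 genes in pathway order (x axis), with a point for each array, a bar at the group mean and whiskers of 1 SD, knockout left of wildtype (n = 3 each). The groups are separate in all 9 genes. Their means differ by about 1 log2 unit in Slc25a38, Alas2 and Alad and by 0.08 in Fech. Alas1 and Uros are higher in the knockout.

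Whether the members changed by the same amount was asked by taking each gene's value minus that of Alas2 on the same array, which cancels any scaling of whole arrays, and fitting these differences over all other genes. Of the 8 other members 5 differed from Alas2, against 98.8% of all genes, most of which did not share its fall; the 3 that did not pass were Slc25a38, Alad and Ppox. All genes in this fit share the noise of Alas2, which can make the moderated p-values too small; without moderation, added after the data were seen, the same count of 5 was reached, against 98.0% of all genes, and the values below are from that fit. Relative to Alas2, Alas1 was higher by 1.29 ± 0.07 (SE; limma without moderation, adjusted p = 0.00072), Uros by 1.19 ± 0.08 (adjusted p = 0.0009), Fech by 0.89 ± 0.05 (adjusted p = 0.00079), Cpox by 0.71 ± 0.11 (adjusted p = 0.0044) and Urod by 0.46 ± 0.07 (adjusted p = 0.0037). For the others the intervals of the difference bound what could have been missed: -0.34 to 0.16 for Slc25a38, -0.27 to 0.43 for Alad and -0.02 to 0.45 for Ppox. In the moderated fit Ppox passed with array weights, with a trended and robust variance and without wildtype 3, with adjusted p from 0.032 to 0.048.

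**Figure D2:**
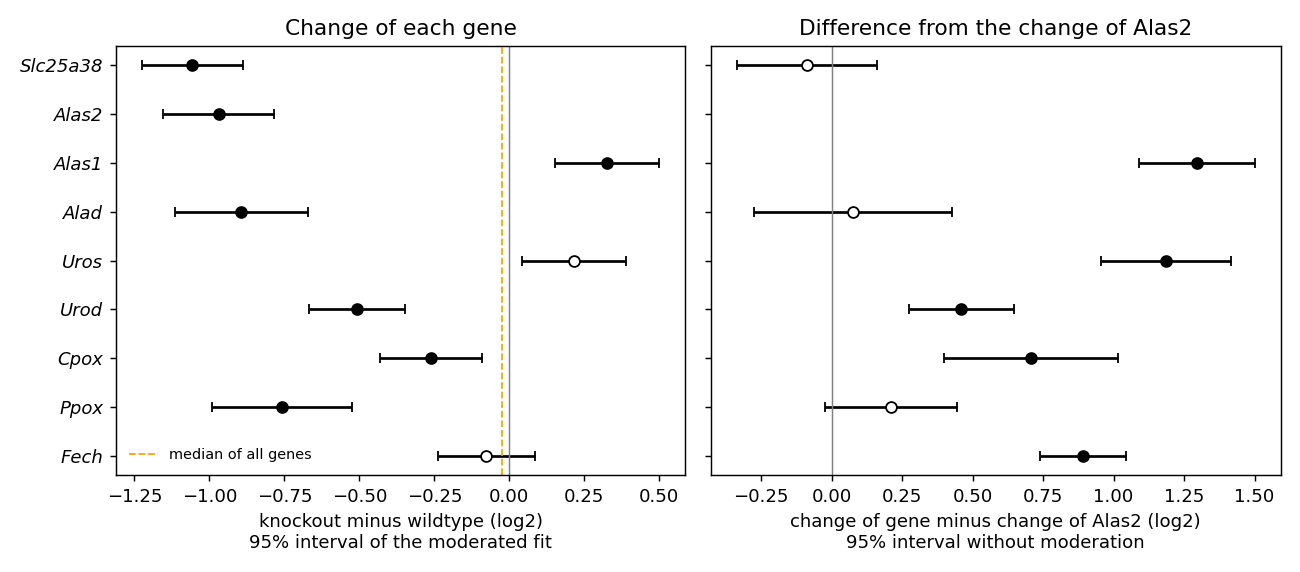
Left, the knockout minus wildtype change of each gene on the log2 scale with its 95% interval from the moderated fit. Right, the difference between that change and the change of Alas2, with a 95% interval without moderation. Filled points have an adjusted p under 0.05. The interval of Fech on the left includes 0, and on the right those of Slc25a38, Alad and Ppox include 0.

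The genes with the most similar profiles were sought over all 6 arrays, by the root mean square difference of log2 values after each gene's own mean was taken off. The 3 nearest to Alas2 were Slc25a39 at 0.028, Nup210 at 0.034 and Abcb10 at 0.039. Slc25a39 is a mitochondrial carrier of glutathione, Nup210 a nuclear pore protein, and Abcb10 a mitochondrial transporter needed for heme synthesis in red cells. Slc25a39 read 10.41, 10.52 and 10.52 in the knockout, against 11.36, 11.52 and 11.56 in the wildtype. Nearest to Alas1 were Prmt7, an arginine methyltransferase, at 0.012, the kinase gene Ikbkb at 0.018 and Nacc1 at 0.018, with changes of 0.33, 0.34 and 0.32. Nearest to Slc25a38 were Gramd4, Lmo2, a partner of Gata1 and Tal1, and Plekhg5, all at 0.048, with changes of -1.07, -1.01 and -1.04. With 2 groups of 3 arrays, likeness mostly reflects the size of the change.

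**Figure D3:**
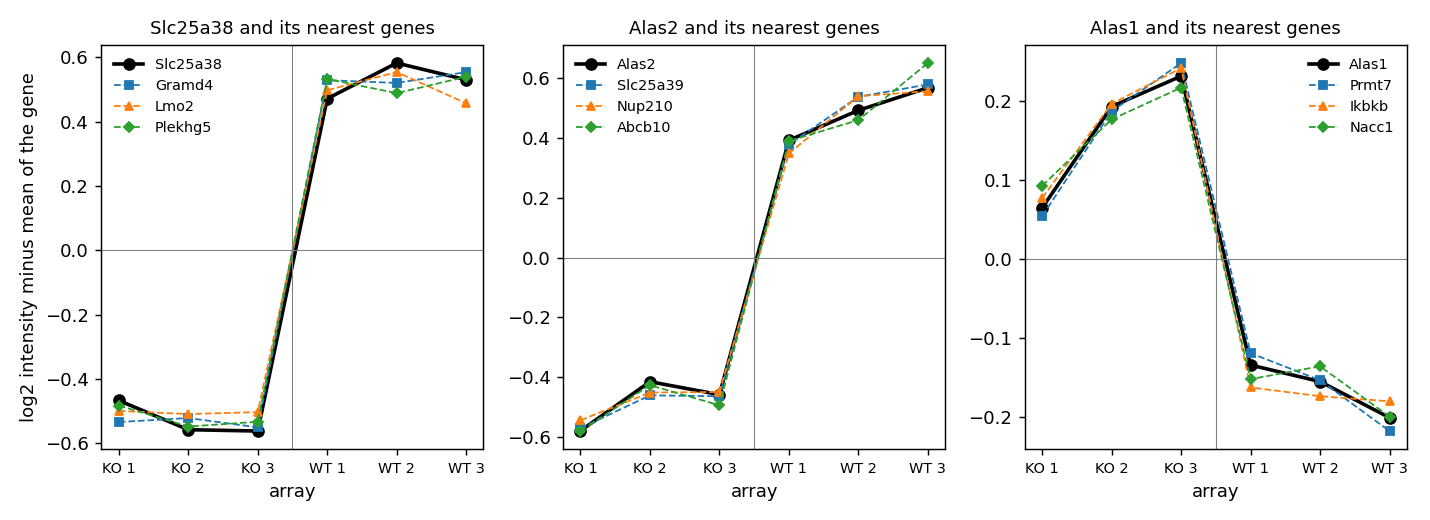
Log2 intensity minus the gene's mean (y axis) on each array (x axis, knockout left of the line, wildtype right) for Slc25a38, Alas2 and Alas1 (black) and the 3 genes nearest to each (dashed). Lines join the points of a gene and give replicates no order. The profiles differ by a root mean square of 0.012 to 0.048.

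Genes whose proteins feed or serve the pathway changed in part at the RNA level. Of 14 porphyrin and substrate partners listed, 13 were measured, 5 fell, 1 rose and 7 were not called, with a median of -0.13. Over all genes 8.26% were called lower and 10.8% higher, and with 13 genes the count of 1 higher lies near that share. The falls were about as deep as that of Alas2 in Abcb10 (-1.001 ± 0.090), Slc25a39 (-0.997 ± 0.084), Fam210b, a mitochondrial inner membrane protein of red cells (-0.93 ± 0.08), and Slc6a9, a glycine transporter of the cell surface (-0.87 ± 0.11). The porphyrin transporter Abcb6 fell by 0.36 ± 0.09, a call lost without knockout 1 or 3 or wildtype 2 or 3. Clpx, a chaperone that activates and turns over the first enzyme, was higher by 0.29 ± 0.09 (limma adjusted p = 0.046), a call lost after quantile normalization, with 75th percentile centring, in the replicate block and without any of 5 arrays. Slc6a9 brings glycine into red cell precursors and Slc25a38 takes it on into the mitochondrion, and both genes fell.

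The list that joins iron uptake with the iron-sulfur cluster genes of the mitochondrion had 7 of 13 measured genes lower and 0 higher, beside 8.26% and 10.8% of all genes, with a median of -0.31. The mitochondrial importer Slc25a37 fell to 11.41 ± 0.01 in the knockout, against 13.38 ± 0.05 in the wildtype (SD, n = 3 each), a change of -1.97 ± 0.07 that is larger than that of any of the 9 pathway genes. The transferrin receptor Tfrc changed by -1.30 ± 0.08 and the endosomal reductase Steap3 by -0.85 ± 0.08. Among the iron-sulfur cluster genes, Isca1 changed by -1.30 ± 0.09, the cochaperone Hscb by -0.74 ± 0.07 and Glrx5, whose loss impairs heme synthesis in zebrafish, by -0.35 ± 0.08.

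Of 10 genes that move or break down heme 3 were called lower and 2 higher, with a median of 0.03. Over all genes 8.26% were lower and 10.8% higher, and with 10 genes the count of 2 higher lies near that share. The exporter Flvcr1 read 10.53 in the knockout and 9.15 in the wildtype on average, a rise of 1.38 ± 0.10 (limma adjusted p = 4.7e-06). Hmox1, the inducible heme oxygenase, rose by 0.30 ± 0.08 (adjusted p = 0.029), lost with 75th percentile centring, with housekeeping centring and without knockout 1, 2 or 3 or wildtype 1. Blvrb, a biliverdin reductase abundant in red cells, fell by 0.80 ± 0.08 and the lysosomal heme transporter Slc48a1 by 0.49 ± 0.09. Hpx, the plasma heme scavenger made by hepatocytes, fell by 0.44 ± 0.13 (adjusted p = 0.032), a call lost after quantile normalization (adjusted p = 0.053), with housekeeping centring (adjusted p = 0.072), and when knockout 1, 2 or 3 or wildtype 2 or 3 was left out. Without wildtype 3 the change of Hpx was -0.29.

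Among 14 regulators of the pathway 6 fell and 0 rose, beside 8.26% and 10.8% of all genes, with a median of -0.20. Klf1, the gene altered by design, is counted in the 14, in the 6 and in that median. Besides Klf1, the genes that fell were Lmo2 (-1.01 ± 0.07), the small Maf protein Mafk (-0.96 ± 0.07), which pairs with the heme sensor Bach1 or with Nfe2, Nfe2 (-0.73 ± 0.08), the heme-regulated kinase Eif2ak1 (-0.45 ± 0.08) and Tal1 (-0.33 ± 0.08). Gata1, an activator of Alas2, and Bach1 were named after their values were seen; they changed by -0.02 ± 0.08 and 0.004 ± 0.072 and were not called.

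**Figure D4:**
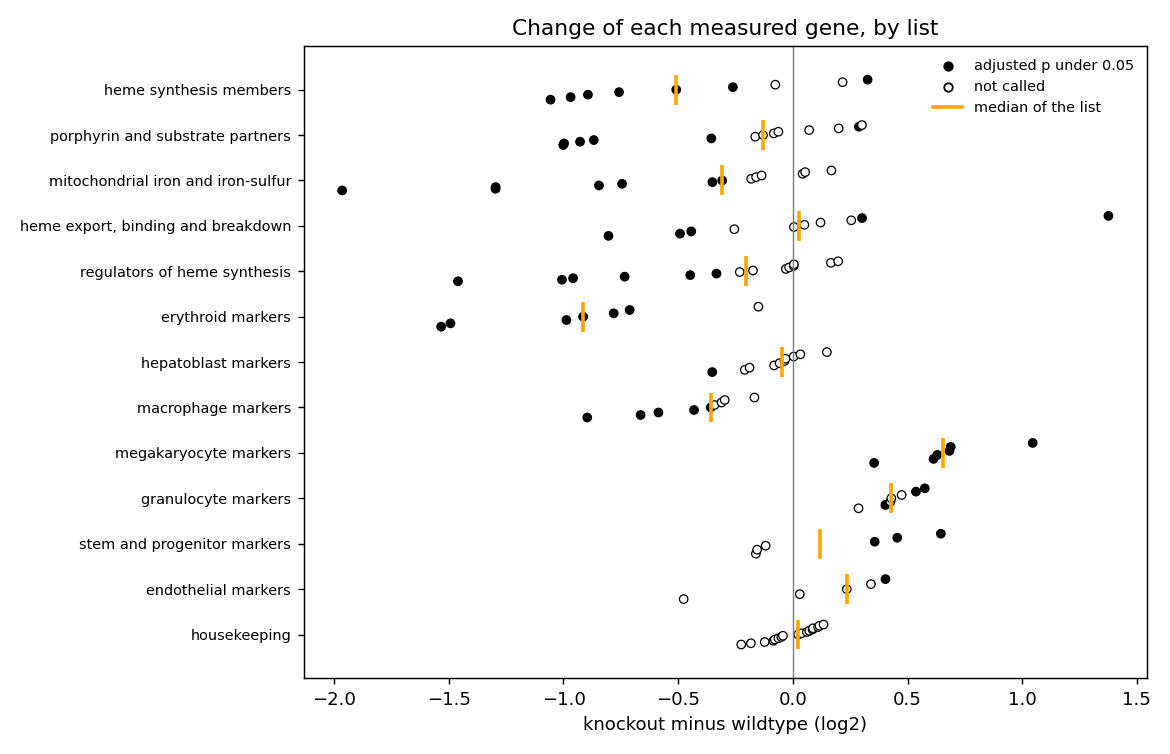
Knockout minus wildtype change (x axis, log2) of every measured gene, by list (rows), with filled points for an adjusted p under 0.05 and an orange bar at the list median. The heme synthesis genes span -1.06 to 0.33; the erythroid markers lie below 0 and the megakaryocyte markers above 0.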

How the data were processed

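The 6 livers gave 6 Affymetrix gene arrays, read in 1 colour. Per the submitters' processing notes, the authors used RMA from Affymetrix Power Tools 1.8.6; the deposited values are probe set intensities on a linear scale. Genome build and annotation: not given in the sources used here. Because RMA equalises arrays, total RNA per liver is not visible in the values. Intensities were converted to log2, with no further scaling or filter. Of 34760 probe sets, 21640 had 1 gene, 1321 several and 11799 none listed; the brightest single-gene probe set stood for each of 19937 genes. The contrast of knockout minus wildtype was fitted in limma 3.58.1 (R 4.3.3) with lmFit and eBayes on group alone, and p-values were adjusted by Benjamini-Hochberg over every gene. Intervals are at 95%. A second fit used each gene minus Alas2 on the same array. The fits were tested on simulated data with known changes. Members and lists were chosen with earlier results of these data known; the lists of partners, iron, export, regulators and markers come from textbook knowledge. Named genes were all members, up to 6 called genes of each heme list with the largest change, and the 3 nearest profiles of 3 members. Titles share replicate numbers, but the correlation of deviations of same-numbered arrays was -0.16, -0.22 and 0.18, so no pairing was used. Alternatives were quantile normalization, centring, filters, probe set means, other variance models (removal of moderation was added after the data were seen), weights per array, the replicate number as a block, a Y-linked covariate, a stricter threshold and leaving out each array.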

Additional observations from a re-analysis of the deposited data

How the results depend on the processing

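The falls of Slc25a38, Alas2, Alad, Urod and Ppox kept their direction and their call in all 18 alternatives; members called lower numbered 5 or 6, the difference being Cpox, and members unlike Alas2 numbered 5 or 6. The 1 member called higher became 2, with Uros, under quantile normalization, a trended and robust variance and the filter at the median, 0 at an adjusted p under 0.01, and 0 or 1 with an array left out. All genes called numbered 3809, against 1995 at an adjusted p under 0.01, 2083 without moderation, and 2409 (without knockout 2) to 3749 with an array left out. Of these calls 43.2% were lower, against 55.5% with 75th percentile centring. Partners called higher, 1 in the fit as reported, were 0 with quantile normalization, 75th percentile centring, the replicate block, the stricter threshold or no moderation, and 0 or 1 with an array left out. Heme export and breakdown genes called higher, 2 as reported, were 1 with 75th percentile or housekeeping centring, the stricter threshold or no moderation, 3 with a filter on dim genes, and 1 to 3 with an array left out; regulators called higher were 0, or 1 without wildtype 1. The difference of Alad from Alas2, 0.08, ran from -0.045 (without wildtype 3) to 0.139 with an array left out. The replicate block lost the calls of Cpox (adjusted p = 0.062) and Clpx (adjusted p = 0.064) and changed no other call of a named gene. Without moderation Cpox (adjusted p = 0.053), Abcb6, Clpx, Hmox1, Hpx and Prmt7 were not called. Where calls were lost, the cause was not tested. No depth applies to arrays; signal near the top of the range limits Alad.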
